A study of Rattus norvegicus with 8 samples.

Results

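Chemokines are small secreted proteins that draw white blood cells along a concentration gradient by binding receptors on their surface. Some are released only during inflammation, and others are made all the time and hold cells in their place. Atypical receptors bind the same proteins without the usual signaling and take them up, which shapes the gradient.

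The genes described here were 19 of the 14016 entries of the deposited gene table, each with a symbol that names a chemokine, a chemokine receptor or an atypical chemokine receptor. They are not the whole family. The symbols were matched without reading a measured value, but the members and role lists were chosen with earlier results of these data known. Each of the 19 symbols stands on an entry of its own. The table comes from RNA sequencing of the thyroarytenoid (TA) muscle, the muscle within the vocal fold, of Long Evans rats. There were 8 male rats at 8 months of age, 4 with a homozygous deletion of Pink1 in every cell (Pink1-/-) and 4 wildtype (WT). Pink1 encodes a mitochondrial kinase, and its loss in the rat is used as a model of early Parkinson's disease. For each gene the table gives 1 level, the authors' average log2 CPM (read counts scaled to a library of 1e+06) over all rats together. It holds 0 columns of values per rat, so no SD, no spread between rats and no library depth could be given. The study's question, whether Pink1-/- differs from WT, was not addressed for these genes, because the only columns that speak to it are the authors' own fold changes and p-values, which were not used. A CPM also grows with the length of a transcript, and no transcript lengths were at hand. The levels below are therefore set side by side as shares of reads, and no order of expression between genes was drawn from them. In whole muscle, fewer cells of a type and less RNA per cell cannot be told apart.

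The label of the tissue was checked against marker genes on the same scale. Muscle fiber markers lay between 10.71 and 14.75 for the 5 of 6 analysed, the fast myosin gene Myh4 being at 14.75. Other tissues were present too, with the squamous keratin gene Krt4 at 8.18, the gland mucin gene Muc5b at 11.74 and the thyroid hormone precursor gene Tg at 6.24. The part of these tissues in the levels of the chemokine genes was not tested.

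Of the 19 genes, 12 encode ligands, 3 encode atypical receptors of the Ackr series and 4 encode other receptors, among them Ccrl2, which does not signal in the usual way either. The median average log2 CPM over the 19 was 2.40, beside 3.14 over all 14016 entries. An average of at least 1 CPM was reached by 18 of the 19, which is 94.7%, beside 96.0% of all entries. The quartiles of all entries lay at 1.73 and 4.49 on the log2 CPM scale. Of the 19 genes, 9 lay below the lower quartile, 8 lay between the quartiles and 2 lay above the upper quartile. These 2 were the ligand Cxcl12 and the atypical receptor Ackr3, which takes up the Cxcl12 protein.

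**Figure D1:**
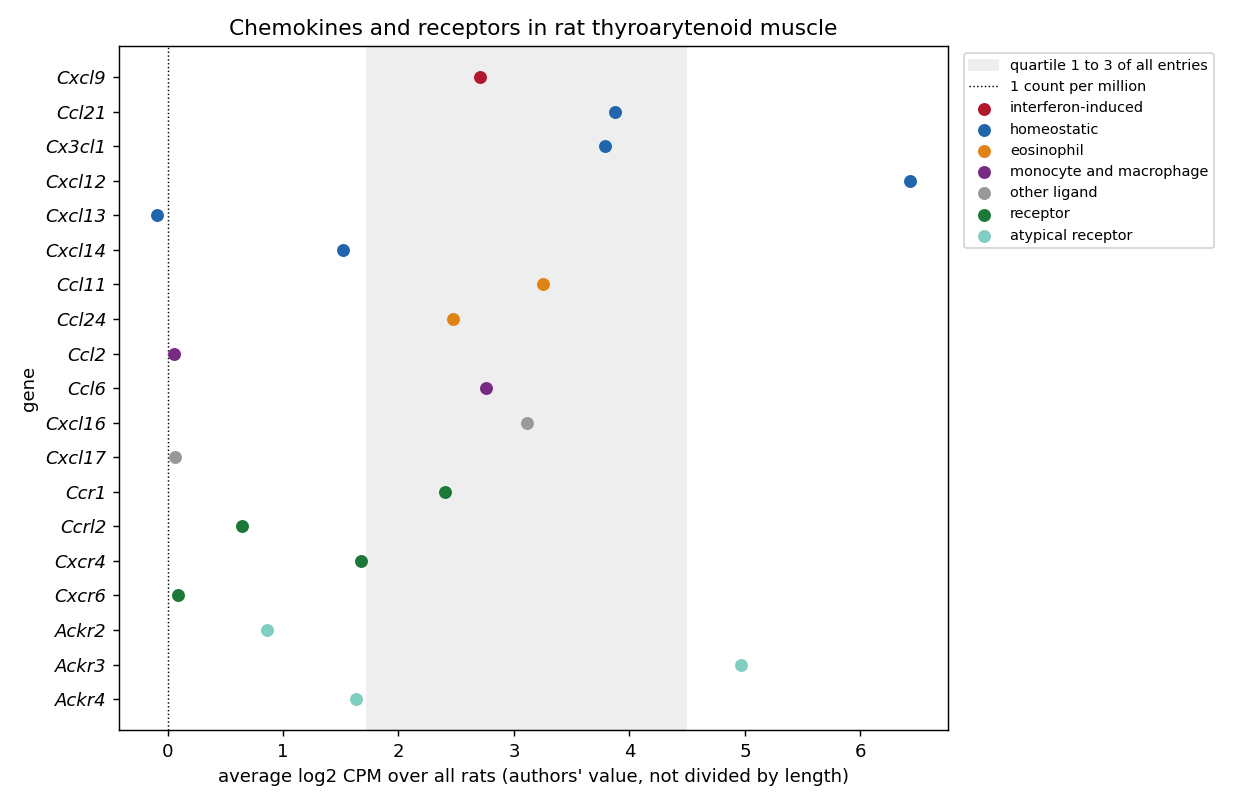
Average log2 CPM over all rats (horizontal axis, the authors' value, not divided by length) of the 19 genes (vertical axis), 1 point per gene, colored by role. The shaded band runs between the quartiles of all 14016 entries, 1.73 and 4.49, and the dotted line marks 1 CPM. Cxcl12 at 6.43 and Ackr3 at 4.97 are the points to the right of the band, and Cxcl13 at -0.09 is the point to the left of the line.

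Interferon-induced chemokines are switched on by interferon and draw activated T cells through the receptor encoded by Cxcr3. Of the list of 4 such genes, Cxcl9 alone was analysed here (ENSRNOG00000022242). Its average was 2.71 on the log2 CPM scale, or 6.54 CPM. The other members of the list, Cxcl10, Cxcl11 and Ccl5, were not analysed here, and neither was Cxcr3. A list with 1 measured member gives a value for that gene and none for the group. In the RefSeq gene table of the assembly GRCr8, Cxcl9 lies beside Cxcl10, with Cxcl11 as the next gene.

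Homeostatic chemokines are made without inflammation and place cells in tissues and lymphoid organs. Of 9 such genes, 5 were analysed, with averages between -0.09 and 6.43 on the log2 CPM scale and a median of 3.79. Cxcl12 (ENSRNOG00000013589), which is made by stromal cells and retains stem cells and leukocytes in the tissues that make it, averaged 6.43, or 86.4 CPM. For this ligand, both receptors on the list were analysed. The signaling receptor gene Cxcr4 (ENSRNOG00000003866) averaged 1.67, or 3.19 CPM, and Ackr3 (ENSRNOG00000019622) averaged 4.97, or 31.3 CPM.

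Ccl21 (ENSRNOG00000034290), which guides dendritic cells and T cells into lymphatic vessels and lymph nodes, averaged 3.88 on the log2 CPM scale, or 14.7 CPM. Its signaling receptor gene Ccr7 was not analysed here, while Ackr4 (ENSRNOG00000011478), an atypical receptor that removes the Ccl21 protein, averaged 1.63, or 3.10 CPM. All 4 markers of lymphatic endothelium, a source of Ccl21, were analysed, from 2.58 for Prox1 to 4.21 for Lyve1. Whether the Ccl21 reads came from these cells was not tested.

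Cx3cl1 (ENSRNOG00000016326), a chemokine that is bound to the cell membrane until it is cut off, averaged 3.79 on the log2 CPM scale, or 13.8 CPM. Its receptor gene Cx3cr1 was not analysed here. Cxcl14 (ENSRNOG00000011984), a chemokine of epithelia, averaged 1.52, or 2.86 CPM. Cxcl13 (ENSRNOG00000024899), which attracts B cells, averaged -0.09, or 0.937 CPM, and is the gene of the 19 that lay under 1 CPM. Ccl19, Ccl25, Ccl27 and Ccl28 were not analysed here. The 5 homeostatic genes thus ran from 0.937 to 86.4 CPM.

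Eosinophil chemokines, the eotaxins, draw eosinophils through the receptor encoded by Ccr3. Of 3 such genes, Ccl11 and Ccl24 were analysed. Ccl11 (ENSRNOG00000007335), the first of the eotaxins to be described, averaged 3.25 on the log2 CPM scale, or 9.51 CPM. Ccl24 (ENSRNOG00000031162) averaged 2.47, or 5.55 CPM. Ccl26 and Ccr3 were not analysed here. Of 5 eosinophil markers, Siglec5 alone was analysed, at 1.56, and the granule protein genes Epx and Prg2 were not. The CodeSet that the study later used in young rats holds a probe for Ccl11. The paper states that this CodeSet was based on differential expression in a brainstem dataset and in the muscle dataset described here. The probe is therefore not independent of these data. Ccl24 lies beside Ccl26 in GRCr8, and Ccl11 lies between Ccl7 and Ccl12, apart from Ccl24.

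With the 3 lists side by side, the medians were 2.71 for the interferon-induced list (1 gene), 3.79 for the homeostatic list (5 genes) and 2.86 for the eosinophil list (2 genes) on the log2 CPM scale. The range of the homeostatic list holds the values of both other lists. Without transcript lengths and values per rat, no difference between the lists was tested.

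Among the other ligands, Ccl6 (ENSRNOG00000030021), known in rodents as a chemokine of macrophages, averaged 2.76 on the log2 CPM scale, or 6.77 CPM. Ccr1 (ENSRNOG00000006715), which encodes a receptor of monocytes and neutrophils that binds the Ccl6 protein in the mouse, averaged 2.40, or 5.29 CPM. Ccl2 (ENSRNOG00000007159), which draws monocytes through the receptor encoded by Ccr2, averaged 0.06, or 1.04 CPM. Ccr2 was not analysed here. All 6 macrophage markers were analysed on the same scale, from 2.43 for Cd68 to 5.76 for Cd163. Of 9 genes listed for monocytes and macrophages, 7 were not analysed here, and the same holds for all 5 genes listed for neutrophils and all 3 listed for type 2 T cells.

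Cxcl16 (ENSRNOG00000026647), made as a membrane-bound protein like Cx3cl1, averaged 3.11 on the log2 CPM scale, or 8.63 CPM. Its receptor gene Cxcr6 (ENSRNOG00000006319), used by T cells, averaged 0.09, or 1.07 CPM. Of 6 T cell markers, Lck alone was analysed, at -0.39. Cxcl17 (ENSRNOG00000037814), a chemokine of mucosal surfaces, averaged 0.07, or 1.05 CPM.

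Of the 17 receptor genes listed outside the Ackr series, 4 were analysed and 13 were not. Beside Ccr1, Cxcr4 and Cxcr6, the fourth was Ccrl2 (ENSRNOG00000033234), which binds the attractant chemerin and presents it, at 0.64 or 1.56 CPM. The 4 averages lay between 0.09 and 2.40 on the log2 CPM scale. Of 4 atypical receptor genes, 3 were analysed, and Ackr2 (ENSRNOG00000019472), a scavenger of inflammatory CC chemokines, averaged 0.86, or 1.81 CPM. Ackr1 was not analysed here. Of 10 analysed ligands with a receptor on the list, 5 had at least 1 receptor analysed and 5 had none. By this pairing, the 5 without were Cxcl9, Cxcl13, Cx3cl1, Ccl11 and Ccl24. The pairing was not complete, because among the analysed ligands it set the scavenger Ackr2 against Ccl2 alone. The split therefore depends on the pairs that were listed.

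Sequence upstream of the genes was read from the RefSeq promoter table of GRCr8, which gives 250 bases before and 50 bases after a gene's start. A window was found for 17 of the 19 genes, and Ccl2 and Ccl11 had no match. To show windows with few and with many CpG dinucleotides, the 250 bases before the start are printed for 1 gene of each of the 3 lists, 5′ to 3′ on the strand of the gene, with each CpG in capitals. All 3 lie on the plus strand, Cxcl9 at chr14:16006916-16007165, Cxcl12 at chr4:152060531-152060780 and Ccl24 at chr12:26737173-26737422.
Cxcl9: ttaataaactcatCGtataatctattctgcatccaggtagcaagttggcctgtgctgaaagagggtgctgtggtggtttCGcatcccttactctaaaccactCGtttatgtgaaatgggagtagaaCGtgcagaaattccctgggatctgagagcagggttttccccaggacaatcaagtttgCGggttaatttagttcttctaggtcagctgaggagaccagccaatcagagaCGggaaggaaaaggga
Cxcl12: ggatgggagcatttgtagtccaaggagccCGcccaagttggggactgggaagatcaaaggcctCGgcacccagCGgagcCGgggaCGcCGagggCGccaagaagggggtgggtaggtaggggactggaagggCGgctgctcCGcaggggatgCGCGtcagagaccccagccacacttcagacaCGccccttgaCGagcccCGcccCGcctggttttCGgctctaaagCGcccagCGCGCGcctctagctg
Ccl24: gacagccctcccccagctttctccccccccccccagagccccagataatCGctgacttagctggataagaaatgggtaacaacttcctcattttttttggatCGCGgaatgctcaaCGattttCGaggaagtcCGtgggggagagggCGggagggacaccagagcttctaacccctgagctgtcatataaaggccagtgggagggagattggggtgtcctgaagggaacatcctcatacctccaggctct

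The printed stretch holds 6 CpG for Cxcl9, 20 for Cxcl12 and 7 for Ccl24. Over the whole windows of 300 bases, the GC content was 44.3% for Cxcl9, 66.7% for Cxcl12 and 55.3% for Ccl24. Over all 33469 windows in the table, the quartiles of GC content were 44.7% and 60.3%, and the upper quartile of the CpG count was 19. Of the 17 windows, 3 lay above the upper GC quartile, those of Cx3cl1, Cxcl12 and Cxcl14, all of the homeostatic list. The same 3 windows and that of Cxcr4 lay above the upper CpG quartile, with 20, 23, 26 and 20 CpG. An upper quartile by definition leaves a share of all windows above it, and neither count was tested against that share. The remaining homeostatic windows, those of Ccl21 and Cxcl13, held 6 and 5 CpG, so the list is split. Below the lower GC quartile lay Cxcl9 and Cxcr6, and the window of Ccl6 held 0 CpG.

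**Figure D2:**
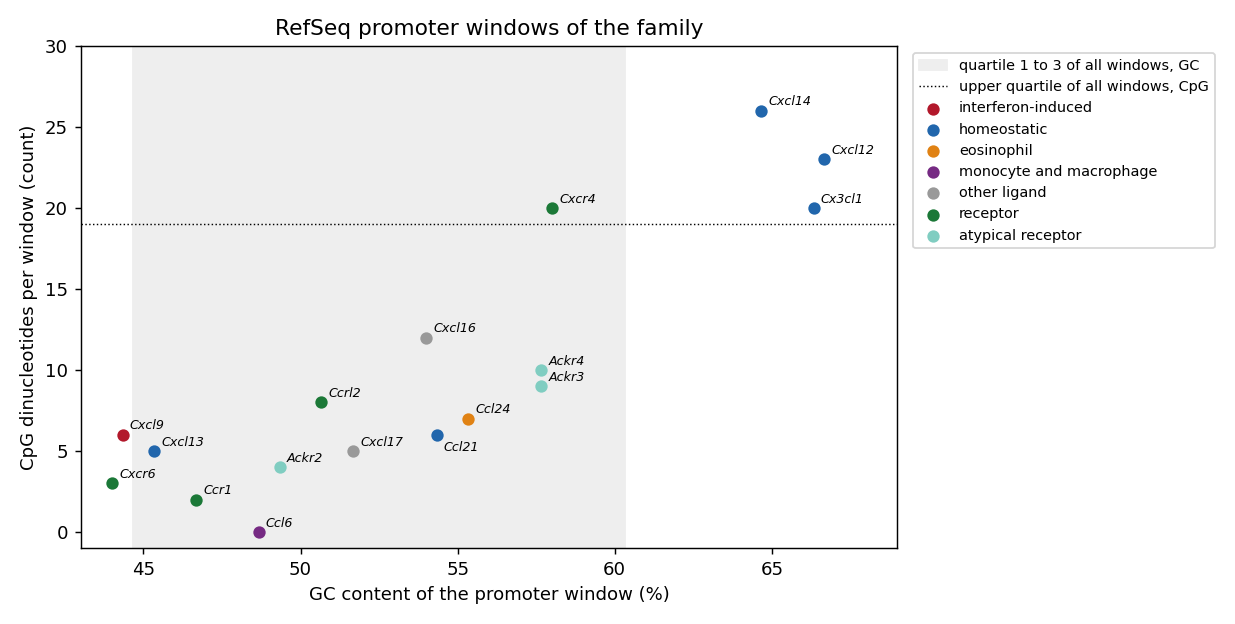
GC content in percent (horizontal axis) and number of CpG dinucleotides (vertical axis) of the RefSeq promoter windows of 300 bases, 1 point for each of the 17 genes with a window, colored by role. The shaded band runs between the GC quartiles of all 33469 windows, 44.7% and 60.3%, and the dotted line marks the upper CpG quartile of 19. Cx3cl1, Cxcl12 and Cxcl14 lie to the right of the band and above the line, and Cxcr4 lies above the line within the band.

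The windows were searched on both strands for 4 sets of letters that signaling factors are known to bind. All windows here are the same 33469 as above, which stand for 27457 genes. Some genes are thus counted more than once among them, while each of the 17 genes has 1 window. The interferon-stimulated response element, GAAANNGAAA, was found in 0 of 17 windows, beside 3.92% of all windows. The interferon-gamma activated site, TTCNNNGAA, was found in 2 of 17 beside 8.87%, in Cxcl9 and Ccl24. In Ccl24 it begins 129 bases before the start, and in Cxcl9 it begins at base 33 counted from the start, outside the printed stretch. The related STAT6 letters TTCNNNNGAA, with 1 more free base, were found in 0 of 17 beside 7.28%, and the NF-kappa B motif in 0 of 17 beside 7.51%. The letters TATAAA, searched on the gene's own strand only, were found in 6 of 17 windows beside 8.80%. These were Cxcl13, at 33 bases before the start, Ccl6 at 32, Cxcr4 at 44, Ackr3 at 54, Ccl24 at 65 and Cx3cl1 at 78. A match is a description of the letters in these windows, and a window without a match says nothing of the factor.

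In GRCr8, 8 of the 19 genes have another gene with a chemokine or chemokine receptor symbol as the nearest protein-coding gene on a side, and 11 do not. No such share was counted over all genes. Ccl21 is among the 11 because its direct neighbors carry LOC symbols, although Ccl19 is the next gene beyond. The 8 were Ccl2, Ccl6, Ccl11, Ccl24, Ccr1, Cxcr6, Cx3cl1 and Cxcl9. Cx3cl1 lies between Ccl17 and Ccl22, neither of which was analysed here. Ccr1 lies between Xcr1 and Ccr3, and Xcr1 is also the next gene after Cxcr6. Whether reads were shared with similar genes nearby was not tested.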

How the data were processed

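RNA of TA muscle from 8 male rats was sequenced, and samples were assigned to Pink1-/- (4 rats) or WT (4 rats) from their genotype labels. According to the submitters' processing notes, the authors used RSEM and edgeR 3.9. Their genome build, annotation and filter were not given in the sources used here. As deposited, the file is the authors' table of 1 comparison. Its average log2 CPM per gene was computed by the authors over all rats and is not divided by length. The fold change, likelihood ratio, p-value, FDR and status columns of the authors' comparison (5 columns) were not used, and 0 columns hold values per rat. The test planned on counts per rat and the levels per length could therefore not be run, depth per library is unknown, and no intervals could be given.

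Genes were taken by symbol, and the members and role lists were chosen with earlier results of these data known. Full values were given for each of the 19 genes, which goes beyond the naming rule, and not every gene that the symbol rule covers is reported here. CPM was 2 to the power of the average log2 CPM. RefSeq tables of GRCr8 gave neighbors (19 genes matched by symbol) and promoter windows (17 matched). The motif search was tested on simulated data. STAT6 letters, TATAAA, GC and CpG content were chosen after seeing the data. The work was done in Python 3.11.15 with pandas 2.3.3, numpy 2.4.6 and, for plots, matplotlib 3.10.9.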

Additional observations from a re-analysis of the deposited data

How the results depend on the processing

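With a minimum average CPM of 1, the median of the homeostatic list moved from 3.79 to 3.83 on the log2 CPM scale, because Cxcl13 drops out. The medians of the interferon-induced and eosinophil lists could not change, because all of their analysed genes already reached 1 CPM. With the 250 bases before the start only, the interferon-gamma activated site was found in 1 gene in place of 2, because the match of Cxcl9 lies after the start. At a minimum of 0.5 and 2 CPM, both chosen after seeing the data, 19 and 13 genes reached the minimum in place of 18 at 1 CPM, within the 1.5 times taken as no change for a count. In total, 7 of 11 alternatives gave equal values, the medians of the interferon-induced and eosinophil lists included. Of these, all but the TATAAA count could not have moved. No gene had a second entry to be added to it, and a window without a motif cannot gain one when cut shorter. Not run were length scaling of the levels, another normalization, no filter and leaving out each rat, because the table used holds neither transcript lengths nor values per rat. No paired analysis was run, because the labels name no pairing between rats and the columns used carry no values per rat. How deeply each library was sequenced is not known, so no limit from depth can be stated.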
